A study of Nothobranchius furzeri with 10 samples.

Results

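The most abundant transcripts in skin of Nothobranchius furzeri, the turquoise killifish, are described here. The species is an annual fish with a short life that is used to study ageing. The transcripts are the gene rows whose mean level over 10 skin libraries reached 1000 CPM (a row's count over the library's total count, scaled to 1000000). The rule found 126 of 26739 rows. Members were chosen by these mean CPM values, so their mean levels, mean shares of counts and order are a description and carry no test. The rule did not use how the rows varied between libraries or how they moved together, although a few high libraries can lift a mean. Length and level per length were not used as such. CPM rises with both, so the members' lengths and places per length are partly set by the rule.

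The libraries form 1 group. They hold skin RNA of 10-week-old male fish of the inbred GRZ strain, all with the label swim-tunnel, a device in which a fish swims against a current. No unexercised fish are in the samples used here. Whether the libraries stem from different fish is not said in the labels, so their spread may in part be technical. The library totals ran from 23206247 to 37149070 counts. The numbers in the library titles form 2 runs of 5, a higher run (replicates 6 to 10) and a lower run (replicates 1 to 5), with 1 number skipped between them. These runs are known from earlier work on the same data to part the libraries. The labels do not call them batches.

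In a tissue profile made from polyadenylated RNA, a small number of transcripts usually supplies a large share of the reads. In fish skin such transcripts are known to include those for keratins of the epidermis, collagens of the dermis and scales, ribosomal proteins, translation factors and mitochondrial proteins. Skin samples can also carry transcripts of the muscle beneath. The files do not pair their identifiers with gene names and 0 of the 26739 identifiers matched the reference gene table, so no member can be placed in any of these classes, and the tissue label could not be checked against markers. Members are therefore called by their rank in mean CPM. In bulk tissue, fewer cells of a type and less RNA per cell cannot be told apart.

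The members together took 39.9% ± 2.03 of all counts (SD, n = 10). The lowest share was 37.2% in replicate 9 (exact 95% binomial interval 37.14% to 37.18%) and the highest was 42.9% in replicate 10 (42.84% to 42.87%). The share thus moved by a factor of 1.15 between libraries, less than any single member did (1.17-fold at the least). The intervals cover counting error only and are narrower than the differences between libraries. The 2 rows just inside the threshold averaged 1008 and 1007 CPM, and the 2 just outside, of rank 127 and 128, averaged 987 and 983 CPM.

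The counts were concentrated in few of the members. The row of rank 1, Nfu_g_1_002091, took 3.88% ± 0.647 of all counts (SD, n = 10), which is 9.73% of the members' counts. The first 10 ranks held 41.7% of the members' counts, the first 25 held 59.1% and the first 50 held 74.2%. With each library ranked by itself, 14 to 19 rows were enough to hold 50% of the members' counts. The effective number of members (the number of equally abundant rows that would be as concentrated, from the sum of squared shares) was 37.02 ± 2.11 (SD, n = 10), from 33.9 in replicate 2 to 39.4 in replicate 5. Concentration was thus similar in all 10 libraries, although the rows that carried it were not always the same.

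**Figure D1:**
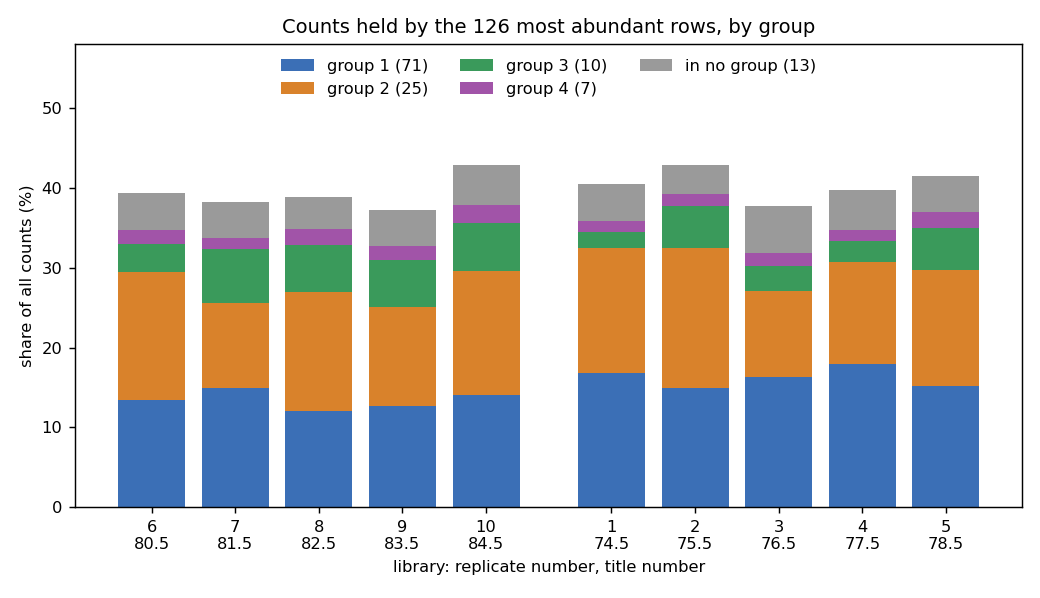
Share of all counts (%) held by the 126 rows in each library, divided by the groups of rows that moved together (sizes in the legend); each bar is 1 library, with replicate and title numbers on the horizontal axis. The whole bar stays between 37.2% and 42.9% while the part of group 3 runs from 2.02% in replicate 1 to 6.75% in replicate 7.

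Rank 1 was the most stable place. Nfu_g_1_002091 stood first by counts in all 10 libraries, with a lowest level of 29915 CPM in replicate 7, a median of 38886 CPM and a highest of 51073 CPM in replicate 2. Its mean was 38776 ± 6471 CPM (SD, n = 10). The row of rank 2, Nfu_g_1_001437, averaged 24573 ± 4185 CPM and stood second in every library but replicate 2, where the row of rank 3 passed it. The CPM of rank 2 relative to that of rank 1 was 0.349 in replicate 2 and 0.923 in replicate 3, a 2.64-fold difference in the ratio of the leading pair. Rank 3 averaged 19439 ± 4262 CPM and stood between place 2 and place 6. No library reversed the order of ranks 1 and 2.

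Below these, the order changed. Of the 10 rows of highest mean, 6 were among the first 10 of every library, and 13 different rows reached the first 10 in at least 1 library. The rows of rank 4, 7 and 8 stayed within places 4 to 9 throughout. Rank 4 had 10750 CPM at the lowest, a median of 14716 CPM and 20020 CPM at the highest. Rank 7 had 9001, 11726 and 15558 CPM in the same order, and rank 8 had 8867, 12729 and 15252 CPM. Rank 9 ran from place 6 to place 11, with 7470 CPM at the lowest and 12204 CPM at the highest. These 4 rows differed less than 2-fold between their extreme libraries.

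The rows of rank 5, 6 and 10 moved most among the first 10. Rank 5 had 4189 CPM in replicate 1, a median of 15222 CPM and 20409 CPM in replicate 7. Rank 6 had 4365 CPM in replicate 1, a median of 14635 CPM and 18167 CPM in replicate 7. Rank 10 had 3396 CPM in replicate 1, a median of 10457 CPM and 13781 CPM in replicate 7. Replicate 1 was thus the lowest and replicate 7 the highest library for all 3, and their places ran from 3 to 18, from 4 to 15 and from 6 to 27. The row of rank 12, in another group of rows, also moved widely, with 1889 CPM and place 49 in replicate 8 against 10247 CPM and place 5 in replicate 3.

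**Figure D2:**
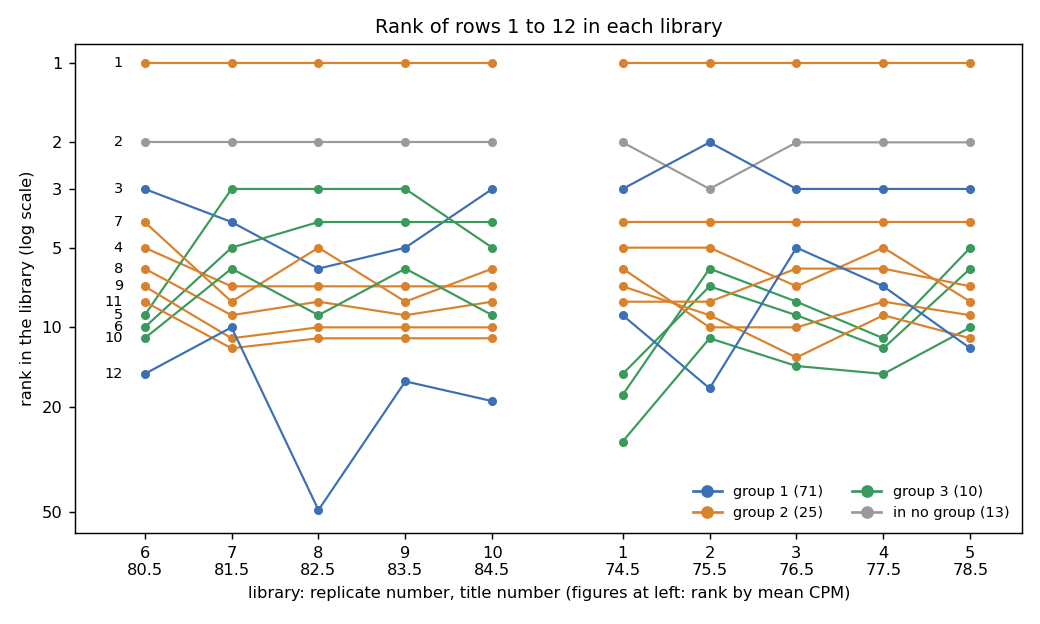
Place by counts (log scale, 1 at the top) of the rows of rank 1 to 12 in each library; the lines only join the points of a row, since the libraries have no order. Rank 1 holds the first place in all 10 libraries, the green rows of rank 5, 6 and 10 drop to places 18, 15 and 27 in replicate 1, and rank 12 drops to place 49 in replicate 8.

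Over all members, 96 of 126 reached 1000 CPM in every library and 100 of 126 were among the first 126 rows of every library. Between 115 rows (replicate 9) and 144 rows (replicate 4) stood at 1000 CPM or more in a single library. In all, 173 different rows reached 1000 CPM in at least 1 library, 47 of them non-members. By the rule no non-member can do so in all 10, since its mean would then reach the threshold. The number of places a member moved had a median of 4 for ranks 1 to 10, 15.5 for ranks 11 to 50 and 26.5 for the remaining ranks. Spearman's rho of member levels between 2 libraries, taken across the 126 rows, had a median of 0.88 over the 45 pairs of libraries and ran from 0.74 to 0.96. It is given as a description, since rows of 1 library are not independent.

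Most members varied less than 2-fold between libraries. Comparing each row's extreme libraries, 102 of 126 members differed less than 2-fold, 14 differed 2-fold to 3-fold and 10 by 3-fold or more. The median coefficient of variation of CPM was 14.1%. All of the first 10 ranks lay above it, from 16.7% (rank 1) to 41.8% (rank 5). Their narrow ranges of places thus do not mean steadier levels. Counting error was at most 0.587% for any member other than rank 72, so depth does not limit these values. For the members that passed a filter on expression (edgeR's, which asks for a minimum count in all 10 libraries; rank 72 failed it), the median SD of log2 CPM was 0.24. It was 0.28 for 1143 tested rows at 100 to 1000 CPM and 0.34 for all 16829 tested rows. No test was made of this difference. The log2 CPM values are scaled with TMM (explained with the groups below), unlike the CPM values.

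The 5 steadiest members by SD of log2 CPM were the rows of rank 81, 39, 49, 117 and 19. Nfu_g_1_022544, of rank 81, had 1266 CPM at the lowest, a median of 1392 CPM and 1517 CPM at the highest, and an SD of log2 CPM of 0.060. Rank 39 ran from 2282 to 2659 CPM, with an SD of log2 CPM of 0.084. On plain CPM rank 39 was the steadiest, with the lowest coefficient of variation of all members, 5.10%. The 5 with the widest spread were the rows of rank 72, 86, 12, 5 and 10, of which rank 86 had 333 CPM in replicate 1, a median of 1428 CPM and 2565 CPM in replicate 7. Rank 86 thus had the same lowest and highest library as ranks 5, 6 and 10.

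Rank 72, Nfu_g_1_015055, had the widest spread of all members. It averaged 1481 ± 2139 CPM (SD, n = 10) but reached 1000 CPM in 3 libraries only. It had 6550 CPM (191572 counts) in replicate 3, a median of 501 CPM and 0.320 CPM (9 counts) in replicate 7. In replicate 10 it had 13 counts and in replicate 1 it had 100. Its place ran from 12 in replicate 3 to 18074 in replicate 7. It is the 1 member that failed the filter on expression, its mean rests on a few libraries, and without it the members' share of counts averaged 39.7%. The widest place ranges after it belonged to rank 86 (places 26 to 359), rank 82 (43 to 227), rank 126 (79 to 195) and rank 123 (83 to 189).

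**Figure D3:**
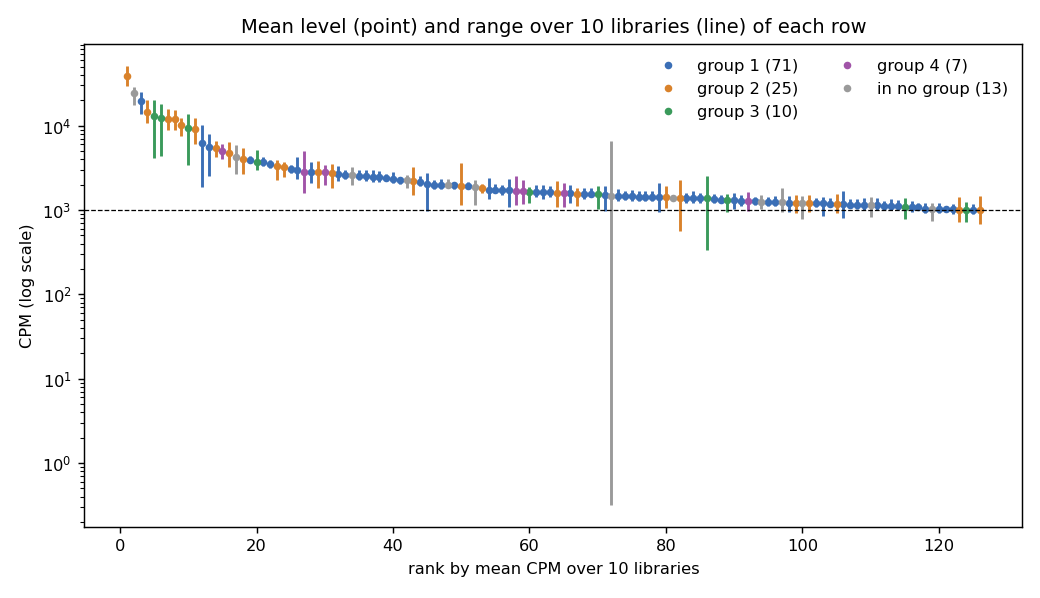
Mean CPM over 10 libraries (point) and the range from the lowest to the highest library (line) of each of the 126 rows, on a log scale, by rank and coloured by group; the dashed line marks 1000 CPM. Most lines are short, those of rank 5, 6, 10, 12 and 86 are longer, and that of rank 72 spans 0.320 to 6550 CPM.

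Order by counts is not order by level per length, since a long transcript yields more counts. Reads per kilobase and per 1e6 counts (RPKM) were restored to each library's own total for this purpose, because 90.0% of the deposited values had been divided by the total of a different library. By RPKM the leading row was that of rank 9, with an implied length of 342 bases, at 29836 ± 5323 RPKM (SD, n = 10). Rank 1, at 1813 bases, followed with 21388 ± 3569 RPKM. Next came rank 7 (1133 bases) at 10731 ± 2013 RPKM and then the short row of rank 29 (330 bases) at 8553 ± 2280 RPKM. The row of rank 2, at 8522 bases, stood at place 25 per length. Of the first 10 rows by counts, 5 were also among the first 10 by RPKM, and 89 of 126 members were among the first 126.

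Implied lengths of the members had a median of 1822 bases, against 2817 bases over the 16829 tested rows. The range was wide, from 321 to 88546 bases. The longest were the rows of rank 23 and 31, with 88546 and 67190 bases. Their high counts went with low levels per length, at 37.8 ± 6.22 and 41.1 ± 8.11 RPKM (SD, n = 10), places 1441 and 1306. This pair of rows was named because of these values.

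The members rose and fell in a few large groups. Clustering of log2 CPM (scaled with TMM, a trimmed mean that makes most rows agree between libraries) by Pearson's r placed 113 of 126 rows in 4 groups of at least 5, with 71, 25, 10 and 7 rows. The groups were built from these values, so the r within them is a description. Over all 7875 pairs of members the median r across the 10 libraries was 0.44, and 0.20 with plain library totals in place of TMM. With TMM it was 0.7 or more in 2717 pairs (34.5%) and below 0 in 2125 pairs (27.0%). Only 21 pairs had an r of -0.7 or less, and this count was not stable. It was 114 with plain library totals, 9 without replicate 1, 53 without replicate 5, 44 without replicate 6 and 79 without replicate 10.

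Group 1, with 71 rows and led by ranks 3, 12 and 13, was the large and mostly steady block. Its mean r was 0.88, and its median row differed 1.32-fold between its extreme libraries, although rank 12 differed 5.42-fold and rank 13, from 2536 CPM to 7909 CPM, 3.12-fold. It took 14.8% ± 1.84 of all counts (SD, n = 10). Of its 71 rows, 57 stood at 1000 CPM or more in all 10 libraries. A pair in it, ranks 47 and 113, kept its ratio of CPM at 0.567 ± 0.0093 (SD, n = 10), between 0.556 and 0.582. This pair was picked for its high r, so its steady ratio follows from the choice and need not be typical of the group. The median implied length of the group was 1361 bases, with a range from 321 to 10673 bases. Of its 71 rows 38 were under 1500 bases. So were 9 of 25 rows in group 2, 0 of 10 in group 3, 1 of 7 in group 4 and 4 of the 13 rows in no group.

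Group 2, with 25 rows, held much of the top of the list, with ranks 1, 4, 7, 8, 9 and 11 among its members. It took 14.1% ± 2.32 of all counts (SD, n = 10), with 10.7% in replicate 7 and 10.8% in replicate 3 at the low end and 17.6% in replicate 2 at the high end. Its rows moved together within the group, with a mean r of 0.79. A group's part in the variance of the members' summed share was its covariance with that share, over the variance of that share. Such parts can be negative or exceed the whole. Group 2 carried 86.1%, and 74.8% to 101.2% when each library was left out in turn. The row of rank 1 alone carried 22.2% (15.2% to 27.1%). The error of the group 2 part, from leaving out each library (jackknife), was 25.5 percentage points. It was of similar size for group 1 (27.5) and group 3 (26.7), so none of these parts is precise. The parts of groups 1 and 3 also changed sign when single libraries were left out. Group 1 carried 14.96%, but -3.21% without replicate 9 and 29.2% without replicate 10. Group 3 carried 3.60%, but 17.6% without replicate 9 and -12.3% without replicate 10. The 4 leading rows per length (ranks 9, 1, 7 and 29) and the 2 longest rows were all in group 2.

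Group 3, with 10 rows, had the widest range of share as a fold, although the shares of groups 1 and 2 spanned more percentage points. Its share of all counts was 4.63% ± 1.66 (SD, n = 10), with 2.02% in replicate 1 and 6.75% in replicate 7, a 3.35-fold range. Ranks 5, 6 and 10 made up 72.8% of its counts on average. The CPM of rank 6 relative to rank 5 stayed between 0.890 and 1.04, and that of rank 10 relative to rank 6 between 0.697 and 0.778, while the rows themselves moved more than 4-fold. Ranks 6 and 10 had the highest r of all pairs after run means were removed, at 0.997. All 10 rows of group 3 were long, from 3198 to 9459 bases with a median of 5935 bases. Median length thus differed between groups 1 and 3, although the range of group 1 covers that of group 3. The part of length in their movement was not tested.

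Group 4, with 7 rows led by ranks 15, 27 and 30, held a share of 1.69% ± 0.325 of all counts (SD, n = 10). The share was lowest at 1.27% in replicate 1 and highest at 2.29% in replicate 10. Rank 27 moved most in it, with 1573 CPM in replicate 2, a median of 2568 CPM and 4965 CPM in replicate 10. Rank 2 was in no group with all libraries pooled. The 13 rows in no group, which include rank 72, took 4.63% ± 0.598 of all counts (SD, n = 10).

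Among the 4 groups, rows that trade off were found mainly between group 1 and groups 3 and 4. The lowest r of all pairs of members, -0.86, lay outside these sets, between a row in no group and a row in a group. Of the 710 pairs with a row in each of groups 1 and 3, 99.9% had an r below 0, with a mean of -0.40 and a lowest of -0.82. Between groups 1 and 4 it was 86.5% of 497 pairs, with a mean r of -0.23 and a lowest of -0.68, so the opposition there was weaker. Groups 3 and 4 moved the same way in all of their 70 pairs, with a mean r of 0.48. The rows of a group moved together, so pairs between groups are not independent. Their counts and percentages are a description. The opposition of groups 1 and 3 went with the 2 runs of title numbers. With the mean of each run removed, the mean r between groups 1 and 3 was 0.029 and 46.3% of the pairs were below 0. Between groups 1 and 4 it was then 0.086, with 31.0% of pairs below 0. The pooled pattern also varied with scaling. With plain totals 700 of the 710 pairs of groups 1 and 3 were below 0 (mean r -0.46), as were all 497 pairs of groups 1 and 4 (mean r -0.52), and 914 of 1775 pairs of groups 1 and 2 were below 0 against 340 with TMM. With non-member totals the mean r with group 1 was -0.30 for group 3 and -0.31 for group 4, so which of them opposed group 1 more depends on the scaling.

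**Figure D4:**
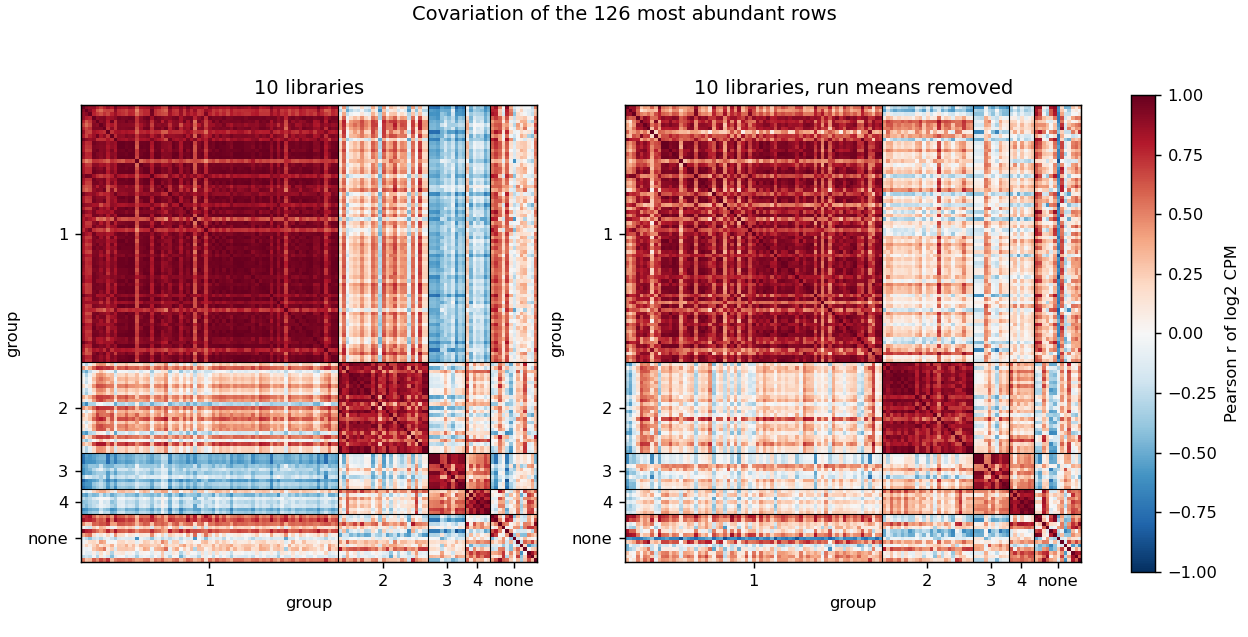
Pearson's r of log2 CPM for every pair of the 126 rows, ordered by group with black lines between groups, over the 10 libraries (left) and with the mean of each run of title numbers removed (right). The red blocks on the diagonal are present in both, while the blue block between groups 1 and 3, with a mean r of -0.40 on the left, has a mean of 0.029 on the right.

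Groups 2, 3 and 4 were found again nearly whole without the difference between the runs, and group 1 in part. With run means removed, the median r over all pairs was 0.36, and clustering gave 5 groups. Of the 71 rows of group 1, 55 fell in 1 group of 56, but its leading rows of rank 3, 12 and 13 did not. Of group 2, 24 of 25 rows formed a group of 24, and of group 3, 9 of 10 formed a group of 9. All 7 rows of group 4 fell in a group of 9. The fifth group had 16 rows, of which 13 came from group 1, with ranks 3, 12 and 13 among them, and 3, with rank 2 among them, had been in no group. The lowest r with run means removed, from -0.869 to -0.867, belonged to pairs of rank 72 with ranks 39, 57 and 90, whose pooled r was -0.60, -0.28 and -0.30. Rank 72 had 100 counts or fewer in 3 of the 10 libraries.

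Beyond the members, 495 of 16704 other tested rows (2.96%) had an r of 0.9 or more with the mean log2 CPM of group 1, but 35 of them kept it with run means removed. For group 2 it was 33 rows, of which 31 kept it. For group 3 it was 13 rows, of which 11 kept it, and for group 4 it was 52 rows, of which 47 kept it. In the opposite direction, an r at or below minus 0.9 was found in 299 rows (1.79%) for group 1. It was found in 5 rows for group 3 and in 0 for groups 2 and 4. Whether these rows kept it with run means removed was not computed. The profiles of groups 2, 3 and 4 were thus shared by few other rows, and that of group 1 by more rows, most of which fell below 0.9 with run means removed.

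Levels in the 2 runs of title numbers were set side by side, without a test, since the split was first noticed on these data. In 39 of 126 members all of replicates 6 to 10 lay below all of replicates 1 to 5, and in 0 members all lay above. Over the 16829 tested rows the lower direction held in 12.4% and the higher direction in 17.4%. Rank 72 was counted with the members, although it could not be among the tested rows. All 39 were rows of group 1. The count depends on scaling. It was 34 lower and 0 higher with DESeq2 size factors, against 12.2% and 17.3% of the tested rows. With plain totals it was 31 lower and 2 higher, against 8.76% and 19.8%. RPKM with own totals gave the same counts and shares by construction, since it divides each row's plain CPM by a fixed length. With the counts of non-members as the total it was 9 lower and 0 higher, against 9.57% and 19.4% of the tested rows. The members' share in the lower direction (7.14%) is then below that of all rows. An excess of members without overlap in the lower direction thus does not hold over the scalings. The mean differences, which do not ask for separation, are given below. Without replicate 10 the TMM count was 59 lower, where 14.96% of the tested rows were lower.

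The median difference of group 1 was below 0 under each of the 4 scalings. Its rows had a median difference of -0.27 in log2 CPM (replicates 6 to 10 minus replicates 1 to 5), and 71 of 71 were below 0, as they were with size factors and non-member totals. With plain totals it was 70 of 71 and a median of -0.19. Over all members 102 of 126 were below 0, with a median of -0.23, and over the tested rows 52.4% were, with a median of -0.03. With non-member totals 101 of 126 members were below 0 (median -0.17), against 48.1% of the tested rows (median 0.03). With plain totals 98 of 126 members were (median -0.14), against 46.1% of the tested rows (median 0.06). No test was made of these differences. Group 1 was formed on values that hold the difference between the runs, so a shared direction within it is partly built in. Group 1 took 13.4% ± 1.15 of all counts in replicates 6 to 10 and 16.2% ± 1.22 in replicates 1 to 5 (SD, n = 5 each). The runs overlapped slightly, with 14.93% in replicate 7 and 14.89% in replicate 2. In log2 CPM with TMM, the row with the widest gap between the runs was that of rank 79. Ranks 103 and 68 came next among the rows without overlap. In plain CPM rank 79 had 953 to 1353 CPM in replicates 6 to 10 and 1437 to 2076 CPM in replicates 1 to 5. The order of the gaps depends on the scaling. In plain CPM that of rank 68 was wider, with at most 1510 CPM in replicates 6 to 10 and at least 1635 CPM in replicates 1 to 5. Rank 12 had the largest mean difference of the members other than rank 72, at -0.96, but its libraries overlapped.

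Group 3 lay on the other side. All 10 of its rows had a higher mean in replicates 6 to 10, by a median of 0.32 in log2 CPM and by 0.69 to 0.75 for ranks 5, 6 and 10, and this held for all 10 rows under each of the 4 scalings. These rows too were grouped on values that hold the difference. Group 3 took 5.60% ± 1.25 of all counts in replicates 6 to 10 and 3.66% ± 1.51 in replicates 1 to 5 (SD, n = 5 each). The libraries overlapped, at 3.46% to 6.75% and 2.02% to 5.29%. Group 4 lay on the same side as group 3, with a median difference of 0.26 in log2 CPM. Of its 7 rows 1 was below 0, under each of the 4 scalings. It too was grouped on values that hold the difference. Group 2 took 13.9% ± 2.26 in replicates 6 to 10 and 14.3% ± 2.62 in replicates 1 to 5, with wide overlap between the runs. Of its 25 rows 21 had a difference below 0, with a median of -0.13 in log2 CPM. With plain totals it was 19 rows and a median of -0.05. The members' summed share was 39.3% ± 2.16 in replicates 6 to 10 and 40.4% ± 1.94 in replicates 1 to 5.

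**Figure D5:**
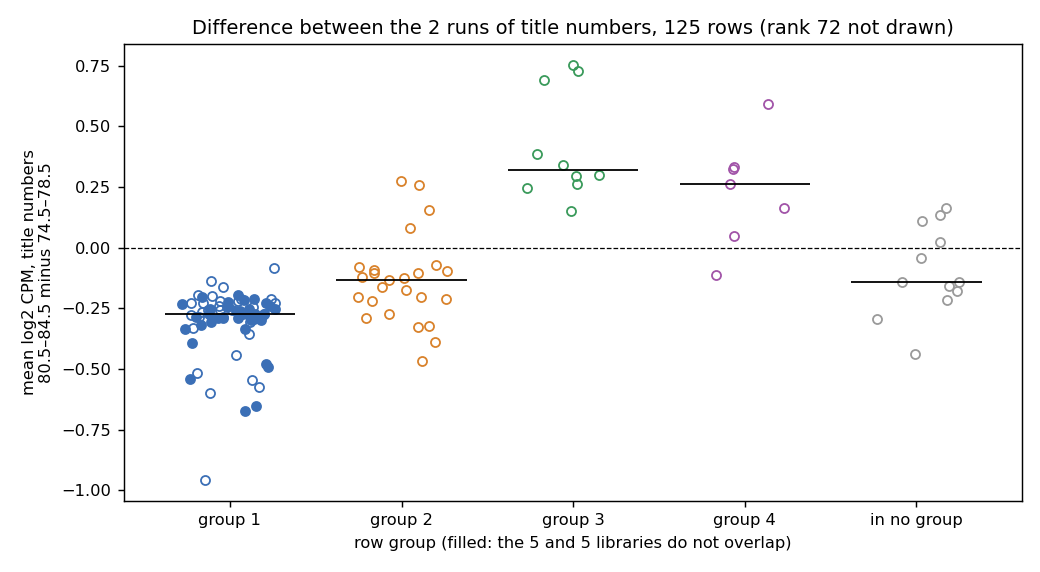
Mean log2 CPM of replicates 6 to 10 (the higher title numbers) minus that of replicates 1 to 5 for each row but rank 72, by group; filled points are rows whose libraries do not overlap between the runs, and black lines are medians. All filled points are in group 1, whose median is -0.27, and all 10 points of group 3 lie above 0.

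How the shares moved across the 10 libraries, which the choice of members by mean level did not use, was tested for 3 pairs of measures with two-sided permutation tests (100000 resamples). The members' summed share showed no relation past the threshold with log2 library total, with a Pearson r of -0.20 (permutation p = 0.567, Benjamini-Hochberg adjusted 0.782) and a Spearman's rho of -0.12 (permutation p = 0.758, adjusted 0.867). The share of rank 1 and that of the other members had an r of 0.46 (permutation p = 0.179, adjusted 0.537) and a rho of 0.37 (permutation p = 0.297, adjusted 0.867). The share of the first 10 ranks and that of the other members had an r of 0.099 (permutation p = 0.782, adjusted 0.782) and a rho of -0.067 (permutation p = 0.867, adjusted 0.867). The relation to depth had an r of 0.27 once the 2 libraries with totals farthest from the median were dropped. Without the 2 farthest in the share of rank 1, r of that share with the other members was 0.28, and without the 2 farthest in the share of the first 10 ranks, r was -0.012. Within the runs (run means removed, 14400 rearrangements) r was -0.26, 0.48 and 0.57, with exact permutation p of 0.494, 0.157 and 0.0721 and adjusted p of 0.494, 0.235 and 0.216. With shares taken per non-member counts, rank 1 and the other members had an r of 0.67 (permutation p = 0.0337, not adjusted). It was the 1 setting in which a relation passed the threshold, and it was positive. Both of its measures are divided by the same non-member total, which ran from 13263190 to 22732412 counts. A common divisor that varies can itself raise r, so this p does not show a relation. The shares of all counts have the library total in common as divisor. A p that misses the threshold does not show that there is no relation.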

How the data were processed

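Skin RNA of 10 libraries was made into libraries by a TruSeq RNA protocol, per the labels. Tools named in the submitters' processing notes are featureCounts 1.4.6-p4, STAR 2.4.1d and bcl2fastq 1.8.4. The build and the annotation were not given in the sources used here. In their tables the authors deposited whole-number counts per gene and RPKM for the same rows. The deposited RPKM were divided by totals that cycle down the rows: implied lengths varied by a median of 22.4% between libraries with own totals and by at most 0.00662% with cycled totals, over 4151 rows. Each RPKM value was therefore rescaled to its own library's total. CPM used column totals.

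log2 CPM used TMM factors (edgeR 4.0.16, R 4.3.3) and a prior count of 2. Groups came from average linkage on 1 minus r, divided at a height of 0.4. Alternatives were plain totals, DESeq2 1.42.0 size factors and non-member totals as scaling, other thresholds, RPKM and each library left out. Other steps ran in pandas 2.3.3, scipy 1.17.1 and numpy 2.4.6 under Python 3.11.15. The count of rows without overlap, the grouping and the RPKM step were tried on simulated data. The planted changes were larger than most differences between libraries in the members, so recovery of small ones was not tested. The closest 2 libraries had a chi-square of 35.5 times its degrees of freedom, so none agreed within sampling noise. Replicates were numbered in record order.

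The members, gene lists and tests were chosen with earlier results of these data known. Named rows were the 10 highest, those with the largest and smallest spread, the widest place ranges, the highest and lowest pairs, the leaders of each group, those nearest the threshold and those most separated between runs. Gene lists and markers were not analysed here, as 0 identifiers matched the reference table (assembly NfurGRZ-RIMD1).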

Additional observations from a re-analysis of the deposited data

How the results depend on the processing

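No paired analysis was possible because every library is in 1 group. The members' share of 39.9% was 47.9% at a threshold of 500 CPM, 28.8% at 2000 CPM and 45.1% of RPKM with own totals, and 39.3% to 40.2% when single libraries were left out. Without rank 72, a setting chosen after seeing the data, it was 39.7%. The number of members was 124 to 126 with each left out. Median rho between libraries was 0.88, was 0.96 with RPKM and 0.87 to 0.89 with each left out. The median SD of 0.24 was 0.21 with plain totals, 0.17 with run means removed and 0.22 to 0.26 with each left out. Median r of 0.44 was 0.20 with plain totals and 0.35 to 0.51 with each left out. The 2717 pairs at 0.7 or more became 2553 to 2943, and the 21 pairs at -0.7 or less became 9 to 79, and 114 with plain totals; the cause was not tested. The 39 members lower in replicates 6 to 10 became 9 with non-member totals (9.57% of tested rows) and 39 to 59 when each was left out (59 without replicate 10, where 14.96% of tested rows did so). The 0 members higher there became 2 with plain totals, where 19.8% of tested rows were higher, and 0 to 2 with each left out, where 17.9% to 19.3% were. For this count RPKM repeats the result of plain totals by construction. The relation of the members' share to depth was -0.20 and became 0.27 without the 2 farthest libraries and -0.36 to 0.16 with each left out (0.16 without replicate 2). For rank 1 and the other members r was 0.67 (permutation p = 0.0337) per non-member counts, a scale that adds a common divisor, and 0.31 to 0.58 with each left out. For the first 10 ranks r was -0.012 without the 2 farthest libraries and -0.047 to 0.32 with each left out, below 0 without replicate 2 or 10. Parts of the variance of the summed share were also computed with each library left out, after seeing the data. They ran from -3.21% to 29.2% for group 1, 74.8% to 101.2% for group 2 and -12.3% to 17.6% for group 3. For group 4 they ran from -2.21% to 7.36% and for rows in no group from -15.8% to 0.632%. Depth limits few values, as every member but rank 72 had a counting error of at most 0.587%.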
